A study of Mus musculus with 4 samples.

Results

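Neural stem cells were set against fibroblasts with 1 Affymetrix mouse array for each. The array labelled NSC carried total RNA of primary-derived neural stem cells. The array labelled MEF carried total RNA of mouse embryonic fibroblasts. These are 2 of the 4 arrays of the series, whose other 2 hold induced neural stem cells. The medium of the neural stem cells was N2, to which EGF, bFGF and laminin were added. How the fibroblasts were grown, and the strain, age, brain region and passage of either population, were not stated in those labels. No introduced gene or other treatment is labelled for these 2 arrays. Every sample also carries a source label naming embryonic stem cells, which contradicts the cell type labels and was checked against marker genes. All 18193 genes with a probe set of their own were compared. With 1 array a side there is no replicate check, no test was run and no SD can be given, so the differences below are between these 2 arrays. The precision of all values is limited by this number of arrays. In bulk RNA of this kind, fewer cells of a type and less RNA per cell cannot be told apart.

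Neural stem cells are dividing progenitors that can form neurons, astrocytes and oligodendrocytes. In culture they are kept dividing by EGF and FGF, and they resemble the radial glia of the embryonic brain. Fibroblasts are mesenchymal cells that build connective tissue. They secrete collagens and other matrix, spread on that matrix through contractile actin bundles, and pass mechanical and TGF-beta signals to the nucleus. Embryonic fibroblasts come from many parts of the body and keep a record of their position in the Hox genes.

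Signals are MAS5 intensities. A signal was taken as measured above a floor of 104, set from 86 probe sets of chemosensory receptors, genes of smell and taste. Where 1 array was at or below the floor the fold is a bound, written as "at least". The direction of a bound follows from which array passed the floor, so a count of bounds is no test of direction. Of all genes, 10561 exceeded the floor in MEF, 9854 in NSC and 8923 in both. The 11492 genes above it on at least 1 of these arrays are called measured. Their median log2 difference, NSC minus MEF, was -0.01. By 4-fold or more, 700 of them (6.09%) were higher in NSC and 828 (7.21%) lower. At 2-fold, 2285 (19.9%) were higher and 2011 (17.5%) lower. For scale, 91 of 10809 genes (0.842%) were 4-fold apart between the 2 induced arrays, against 13.3% here.

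The tail of genes lower in NSC was the longer. At 16-fold, 93 genes were higher and 191 lower. At 64-fold, 10 were higher and 53 lower. Of the 53, 36 were bounds, because the gene was at or below the floor on the NSC array. Among the genes named below, Bcas1, Cavin1, Egfr, Ltbp1, Pax6, Pfkp, Plagl1, Ptch1, Sema6d, Tgfbr2, Tle4, Top2a and Wnt7a each had 3 or more probe sets, of which 1 was 2-fold apart. Genes above the floor on both arrays lay within 2-fold in 5874 of 8923 cases (65.8%).

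**Figure D1:**
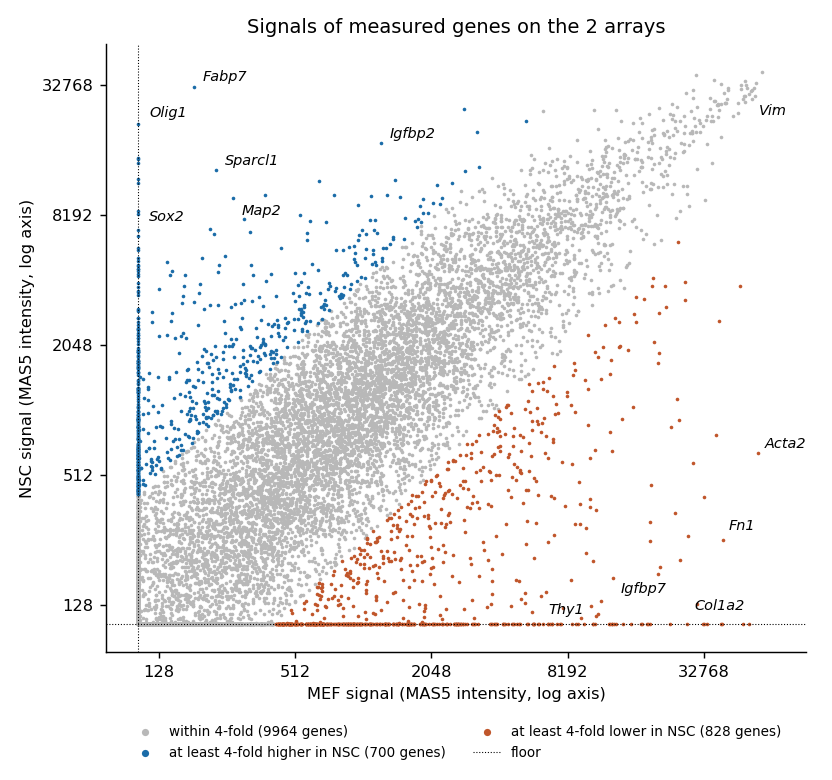
The signal of each measured gene on the MEF array (horizontal, log axis) and on the NSC array (vertical, log axis), with values below the floor drawn at the floor (dotted lines). The 700 genes at least 4-fold higher in NSC lie above the grey band and the 828 lower genes below it, with the longer tail below.

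The zero point rests on scaling each array to the same trimmed mean. The 18 hybridization control probe sets, which report RNA added in known amounts, were all dimmer on the NSC array, by 1.85-fold on average. The 27 poly-A control probe sets were 1.93-fold dimmer, in 25 of 27 cases. If the arrays are set equal on the hybridization controls, the median difference becomes 0.80, 2006 genes are 4-fold higher and 533 lower, and the share of 4-fold calls that are higher goes from 45.8% to 79.0%. Differences below are relative to the median gene. Which zero point is nearer to RNA per cell was not tested.

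Markers first checked the labels. Of 25 pluripotency genes with a probe set, 16 were below the floor on both arrays. Pou5f1, the core pluripotency factor, had signals of 44.2 on the MEF array and 34.6 on the NSC array. Nanog had 1.91 and 2.54. The source label naming embryonic stem cells was therefore not borne out by these genes, while the cell type labels were, as the next paragraphs show. Klf4 (4472 on MEF, 435 on NSC) was the member most above the floor. Tet1, which is also a pluripotency gene, was at or below the floor on MEF and at 886 on NSC.

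Markers of other cell types were largely at the floor, which is stricter for NSC, so the counts of the 2 arrays are not on equal terms. The leukocyte gene Ptprc, the endothelial gene Pecam1, the hepatocyte gene Alb, the B cell gene Cd79a and the muscle regulator Myod1 were below it on both arrays. Of 19 microglia and macrophage markers, 5 were above the floor on MEF and 0 on NSC. Tmem119, a microglial marker also made by some mesenchymal cells, was the highest of them on MEF at 1622. Of 17 endothelial markers, 4 were above the floor on MEF and 1 on NSC. That 1 was Plvap (58.8 on MEF, 1245 on NSC), a protein of endothelial pores. Epithelial and keratinocyte markers were above the floor for 9 of 19 genes on MEF, led by Krt19 at 764 and Krt18 at 584, and for 1 of 19 on NSC. Hepatocyte and B cell markers were above it for 3 of 21 genes on each array, and no measured member was 2-fold apart. Among ependymal and choroid plexus markers, 5 of 16 were above the floor on MEF and 2 on NSC. Ttr and Foxj1, which mark choroid plexus and ependyma, were below it on both. Skeletal muscle and cartilage markers were above it for 12 of 24 genes on MEF and 5 on NSC, where Sox5, Sox6 and Sox9, which neural stem cells also use, stood highest.

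**Figure D2:**
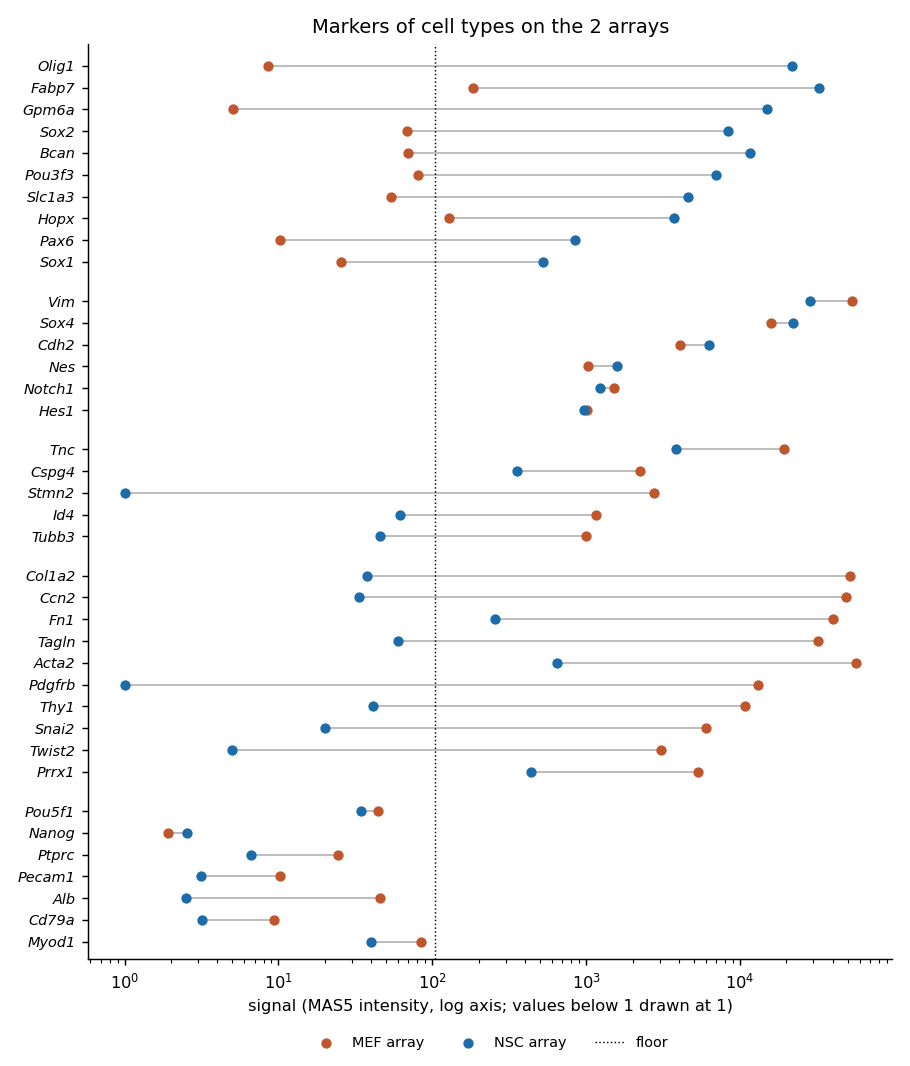
The signals of selected markers on the MEF array (orange) and the NSC array (blue), on a log axis, with the floor as a dotted line. Neural and fibroblast markers sit far apart on opposite sides, the 6 shared progenitor genes close together, 5 neural genes brighter on MEF, and the markers of other cell types left of the floor on both arrays.

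Transcription factors of the neural lineage were mostly higher in NSC. By 2-fold or more, 28 of 38 measured members were higher and 3 lower, and the median log2 difference was 2.42. Bounds made up 19 of the 38, and the 19 members measured in both cell types had a median of 2.29. Olig1, a factor of oligodendrocyte and ventral progenitors, had a signal of 8.53 on MEF and 21677 on NSC and was at least 209-fold higher. Its partner Olig2 had 3.89 and 8598, at least 82.7-fold. Both were below the floor on the fibroblast array and bright on the neural one. Sox2, which maintains neural stem cells, had 68.9 and 8337, at least 80.2-fold. Rfx4, a regulator of cilia and brain patterning, had 4.36 and 12110, at least 117-fold, though only 1 of its 2 probe sets was 2-fold apart.

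The POU factors Pou3f3 (80.7 and 6987) and Pou3f1 (27.0 and 3976) followed the same pattern, Pou3f3 in 1 of 2 probe sets. Zic1 and Nfia, which act in dorsal neural tube and gliogenesis, were above the floor on both arrays, with Zic1 at 120 and 2630 and Nfia 18.6-fold higher in NSC. The classical neuroepithelial factors were dimmer. Pax6 reached 851 on NSC and Sox1 reached 525, against 10.3 and 25.6 on MEF. Other members departed from this. Sox4 (15900 and 22044) and Sox11 (1876 and 2733) were within 2-fold. Hey1 (888 and 230), Nfix (8850 and 4388) and Id4 (1152 and 61.7) were lower in NSC. A further 8 listed factors were below the floor on both arrays.

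Genes of radial glia and neural stem cells were higher for 16 of 25 measured members and lower for 3, with a median of 2.43. Fabp7, the brain fatty acid binding protein of radial glia, had 182 on MEF and 32378 on NSC. At 177-fold it was the gene furthest higher in NSC among those measured in both cell types, and it was among the 10 brightest genes of the NSC array. Sparcl1, a secreted glial protein, had 230 and 13233, 57.6-fold. The membrane glycoproteins Gpm6a and Gpm6b were at least 145-fold and 144-fold higher. Slc1a3, the glial glutamate transporter, had 54.0 and 4619.

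Several genes widely used to mark neural stem cells were close on both arrays. Nes, an intermediate filament, had 1022 on MEF and 1596 on NSC. Vim, another, had 53269 and 28487. Cd24a (6771 and 9043), Msi1 (221 and 431) and Notch1 (1517 and 1232) were also within 2-fold. Tnc, a matrix protein of the stem cell niche, was lower in NSC (19327 in MEF), as was Pdpn (1086 and 189). Among members measured in both cell types the list's median was 0.96 over 17 members.

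Astrocyte genes were higher for 12 of 19 measured members, with a median of 2.24. Aldoc, the brain form of aldolase, had 147 on MEF and 4520 on NSC, 30.8-fold. Glul, which makes glutamine, had 1094 and 7764. Mlc1, Acsbg1 and Aldh1l1 were below the floor on MEF and at 1902, 1596 and 489 on NSC. Gfap, the filament of mature astrocytes, was not higher: its signals were 109 and 28.1. Htra1, a protease, was 9891 on MEF and 290 on NSC. The median of the 9 members measured in both cell types was -0.14.

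Of 12 measured oligodendrocyte lineage genes, 9 were higher and 2 lower, with a median of 2.11. Bounds made up 9 of the 12 measured. Bcas1 (97.4 and 2440), Ugt8a (36.2 and 819) and Cnp (1048 and 5172), genes of oligodendrocyte maturation and myelin, were among the higher. Pdgfra, the receptor of oligodendrocyte precursors, had 223 and 589. Cspg4, the NG2 proteoglycan, was lower in NSC (2249 and 358), and Myrf, a regulator of myelin genes, was above the floor on MEF alone at 288. A further 9 listed genes were below the floor on both arrays.

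Neuronal and synaptic genes were split. Of 27 measured, 15 were higher, 3 lower and 9 within 2-fold, with a median of 1.40. Bounds made up 15 of the 27, and the 12 members measured in both cell types had a median of 1.55. Map2, a dendritic microtubule protein, had 272 on MEF and 9803 on NSC, 36.0-fold, with 2 of 4 probe sets at least 2-fold higher. Gap43, a growth cone protein, had 225 and 6725, and Syt11 had 324 and 6885. Some early neuronal markers went the other way. Stmn2 had 2770 on MEF and 0.765 on NSC, Tubb3 had 990 and 45.4, and Dpysl3 had 8170 and 1190. These genes, often read as neuronal, were brighter in the fibroblasts.

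Receptors and channels for glutamate, GABA and ions were higher for 14 of 22 measured members and lower for 1, with a median of 2.15. In 20 of the 22 the fold was a bound, whose direction was fixed by the array that passed the floor. The remaining 16 of 38 genes with a probe set were below the floor on both arrays. The potassium channels Kcnd3 (46.1 and 6578) and Kcnd2 (36.0 and 2398) led, with the metabotropic receptor Grm5 (6.21 and 4531) and the AMPA receptor subunits Gria2 (44.2 and 2952), Gria3 (109 and 1432) and Gria4 (17.7 and 1363). The lower member was the calcium channel Cacna1c (326 and 97.1).

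Adhesion and guidance genes of the nervous system went both ways. Of 48 measured, 27 were higher and 11 lower, with a median of 1.43. Bounds made up 30 of the 48, and the 18 members measured in both cell types had a median of 0.05. Chl1 (57.1 and 4752), an adhesion molecule of the L1 family, Sema6d (217 and 7059), a semaphorin with 1 of 4 probe sets 2-fold higher, and Cdh4 (70.1 and 3012), a cadherin, stood highest. Slit2, a repulsive ligand, was 5301 on MEF and 145 on NSC. The semaphorin receptors Nrp1 (5062 and 528) and Nrp2 (1869 and 202) and the ephrin receptor Epha3 (1045 and 71.1) were lower as well. Ncam1 was lower in NSC (3711 and 1140) in 3 of its 7 probe sets.

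In neural matrix genes the median was -0.26, and it was 0.58 with the arrays set equal on the hybridization controls. Brain-specific proteoglycans were higher: Bcan had 69.6 and 11578 and Ncan 65.3 and 5169. Has2, which makes hyaluronan, was lower (1455 and 27.9). Versican, Vcan, hardly differed (1935 and 2032). Of 15 measured members 5 were higher and 6 lower.

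**Figure D3:**
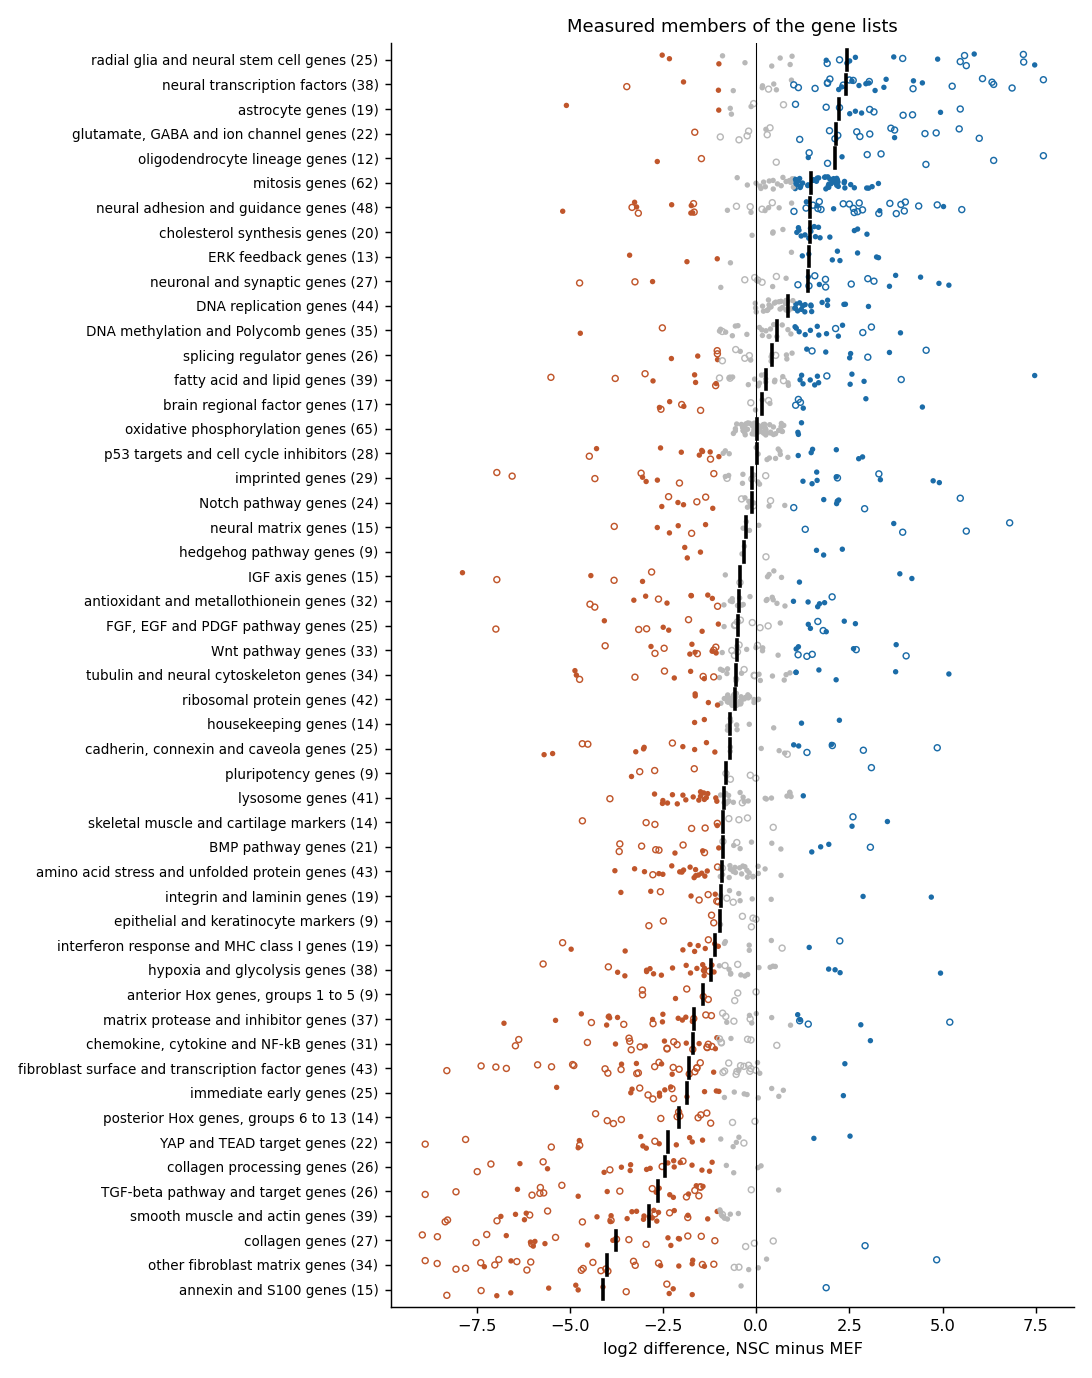
The log2 difference, NSC minus MEF, of every measured member of each gene list with at least 9 measured members (number in brackets), with black bars at the medians. Filled points are genes above the floor on both arrays, open points are bounds, and blue and orange mark members at least 2-fold higher or lower in NSC; neural transcription factors (2.42) and radial glia genes (2.43) have the highest medians, neural matrix genes lie near 0 (-0.26), and collagen, matrix and annexin lists have medians of -3.75 to -4.11.

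Collagens were lower in NSC with few exceptions. Of 27 measured, 23 were lower in NSC and 1 higher, with a median of -3.75. Bounds made up 16 of the 27, and the 11 members measured in both cell types had a median of -4.52. The chains of the main fibrils were bright on MEF and at background on NSC. Col1a2 had 51598 and 37.5, at least 497-fold lower. Col3a1 had 38978 and 19.1, at least 375-fold, and Col1a1 had 18978 and 15.7, at least 183-fold. Basement membrane chains were measurable on both arrays, with Col4a1 at 18982 and 310 and Col4a2 at 7787 and 123. Col5a2 kept the highest signal of any collagen on NSC, at 2650 against 38070. The exception was Col9a3, a chain best known from cartilage, at 9.75 on MEF and 787 on NSC.

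The enzymes and chaperones that modify, fold and crosslink collagen went with it. Of 26 measured, 22 were lower and 0 higher, with a median of -2.45. The crosslinking oxidases Lox (18580 and 41.8) and Loxl1 (14414 and 25.7) and the propeptide enhancer Pcolce (32650 and 404) differed most. The collagen chaperone Serpinh1 remained at 6135 on NSC against 25176. P4hb, the subunit that prolyl hydroxylase shares with other disulfide chemistry, was 26576 and 11158.

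Other matrix proteins of fibroblasts were lower for 28 of 34 measured members and higher for 1, with a median of -4.01. Bounds made up 24 of the 34, and the 10 members measured in both cell types had a median of -1.71. The list's median ran from -3.26 to -4.90 over the other settings, apart from that restriction. Fn1, fibronectin, had 39881 on MEF and 255 on NSC, 157-fold. Bgn, a small proteoglycan, had 39133 and 3.93, at least 377-fold. Postn had 17423 and 2.21. Spon1, a floor plate and matrix protein, was the higher member, at 42.0 and 2979. Fbn2 (3367 and 2930) and Fbln1 (447 and 465) were close on the 2 arrays.

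Surface proteins and transcription factors of fibroblasts were lower for 27 of 43 measured members and higher for 1, with a median of -1.80. Pdgfrb, the PDGF receptor of mesenchyme, had 13144 and 0.700. Thy1 had 10813 and 41.2. Among mesenchymal factors, Snai2 had 6047 and 20.1, Twist2 3084 and 4.96, Foxc2 3155 and 2.35, and Prrx1 5357 and 438. Zeb2, which both lineages use, was equal at 581 and 596. The higher member was Tcf4, which serves both lineages, at 2173 and 11303. Zeb1, a relative of Zeb2 listed with the neural factors and not here, had 1105 and 10083. Of the 43 members 33 were bounds, and the 10 measured in both cell types had a median of -0.81.

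Matrix proteases and their inhibitors were lower for 21 of 37 and higher for 6, with a median of -1.67. The tissue inhibitors of metalloproteases were mostly lower in NSC, Timp1 at 19167 and 460, Timp2 at 10764 and 667 and Timp3 at 7719 and 586. The fourth, Timp4, was the reverse, at 5.87 and 3803. Mmp2 (3513 and 230) and its activator Mmp14 (12564 and 813) were lower. Serpinf1, a secreted serpin, had 20915 and 192, 109-fold.

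Smooth muscle and actin genes were lower for 31 of 39 measured members and higher for 0, with a median of -2.87. Acta2, smooth muscle actin and the usual marker of myofibroblasts, had 56590 on MEF and 644 on NSC, 87.8-fold. Tagln had 32283 and 60.0, at least 311-fold, and Tpm2 had 33720 and 86.1, at least 325-fold. Myl9, the regulatory light chain of contractile myosin, had 20560 and 178, 115-fold. The cytoplasmic actins Actb (46364 and 27176) and Actg1 (54924 and 29388) were within 2-fold. Srf, the factor that drives many of these genes, had 2154 and 605.

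Serum response factor binds a sequence known as the CArG box. It was sought in the 250 bases before the start of each gene, on both strands, in RefSeq promoter sequences of the GRCm38.p6 build. It occurred in 10 of the 34 measured members that had a promoter sequence (29.4%) and in 378 of all 27025 promoters (1.40%). Among promoters of measured genes the share was 1.21%. The stretches around it in 4 members with large differences are shown because these genes were among the actin genes lower in NSC. Capitals mark the box, and each is written 5′ to 3′ along the gene's strand.
Myl9: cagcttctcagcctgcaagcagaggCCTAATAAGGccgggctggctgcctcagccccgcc
Acta1: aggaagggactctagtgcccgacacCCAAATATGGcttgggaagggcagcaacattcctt
Cnn2: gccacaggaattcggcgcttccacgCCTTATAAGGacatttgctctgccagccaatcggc
Fhl2: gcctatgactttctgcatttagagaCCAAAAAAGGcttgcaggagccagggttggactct
The Myl9 stretch is at chr2:156775278-156775337 on the plus strand and the Acta1 stretch at chr8:123894814-123894873 on the minus strand. Those of Cnn2 and Fhl2 are at chr10:79988519-79988578 (plus) and chr1:43196823-43196882 (minus). Signals on MEF and NSC were 2630 and 69.4 for Acta1, 18908 and 254 for Cnn2 and 5023 and 82.8 for Fhl2. Of the other members with the box, Actg1 was within 2-fold and Actc1, Vcl, Srf, Ldb3 and Fhl1 were 2-fold or more lower. A match of letters is a description and not evidence of binding.

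Target genes of YAP and TEAD, the factors through which cells read tension and density, were lower for 15 of 22 and higher for 2, with a median of -2.37. Ccn2 had 48902 and 33.5, at least 471-fold, and Ccn1 had 23078 and 94.5, at least 222-fold. Ankrd1 had 2765 and 19.3, Amotl2 6698 and 250 and Axl 4689 and 99.2. The higher members were Wwc1 (323 and 1851), which restrains YAP, and Fjx1. The TEAD core letters GGAATG, on either strand, stood in the same 250 bases of 7 of 16 members with a promoter sequence (43.8%). The share was 12.6% of all promoters and 10.3% of those of measured genes. Windows of Ccn1, Amotl2 and Ankrd1 are shown as the members with large differences; in the first pair the letters run on the opposite strand, so CATTCC is capitalised.
Ccn1: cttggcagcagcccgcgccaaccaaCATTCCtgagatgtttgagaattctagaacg
Amotl2: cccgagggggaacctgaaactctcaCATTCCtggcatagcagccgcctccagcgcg
Ankrd1: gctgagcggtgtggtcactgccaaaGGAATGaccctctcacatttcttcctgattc
They lie at chr3:145650058-145650113 (minus), chr9:102717714-102717769 (plus) and chr19:36120024-36120079 (minus).

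Annexins and S100 proteins, which bind calcium at membranes, had a median of -4.11, with 13 of 15 measured members lower. Anxa1 had 25680 and 207, Anxa2 37144 and 784 and Anxa3 11160 and 116. S100a6 had 32707 and 63.5 and S100a4 17294 and 10.8. S100b, the glial member, was the higher one at 54.3 and 382.

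Tubulins and related cytoskeletal genes had 6 higher (17.6%) and 10 lower (29.4%) members of 34, against 19.9% and 17.5% of all measured genes. Their median of -0.53 turned to 0.20 with the arrays set equal on the hybridization controls. The nuclear lamins were opposed. Lmna, typical of stiff and spread cells, had 10294 on MEF and 364 on NSC. Lmnb1 had 1740 and 7696. Among integrins and laminins, 9 of 19 were lower and 2 higher (median -0.95, or -0.21 with control scaling and -0.59 over the 12 members measured in both cell types). The higher members were Itgb8 (199 and 5175), which activates latent TGF-beta, and the laminin receptor chain Itga6 (773 and 5645). Of cadherin, connexin and caveola genes, 12 of 25 were lower and 7 higher, with a median of -0.70 that became 0.20 under the control scaling and was -1.11 over the 17 members measured in both cell types. Cav1 (10563 and 205), Cavin1 (7056 and 752) and Cavin2 (2377 and 81.4), which build caveolae, were lower, as was Cdh11 (9848 and 224). Cdh2, the cadherin of neural progenitors and fibroblasts, was 4093 and 6272.

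TGF-beta signalling genes and targets were lower for 24 of 26 measured members and higher for 0, with a median of -2.64. This held for ligands (Tgfb3, 5401 and 49.1, and Inhba, 5800 and 33.2), the receptor Tgfbr2 (4088 and 820), latent binding proteins (Ltbp1, 6710 and 73.5, and Ltbp2, 5746 and 18.8) and the feedback inhibitors Smad7 (1312 and 89.5) and Pmepa1 (9414 and 111). Tgfbr1 was 1402 and 2128. Bounds made up 15 of the 26, and the 11 members measured in both cell types had a median of -2.32. Ccn2 and Thbs1 are on this list as well as on the matrix list, so the lists are not separate evidence.

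BMP pathway genes were lower for 10 of 21 and higher for 4, with a median of -0.89 that was -0.13 over the 11 members measured in both cell types. Bmp7 (25.4 and 869) and the receptors Bmpr1b (258 and 995) and Bmpr1a (1497 and 4208) were higher, and the antagonist Grem1 (874 and 42.3) and the ligand Bmp4 (633 and 34.9) lower. Of the BMP targets, Id1 had 5118 and 1893, Id2 3815 and 5101 and Id3 11906 and 5937.

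Insulin-like growth factor binding proteins divided between the cell types. Igfbp2 had 1222 on MEF and 17661 on NSC, and Igfbp3 had 651 and 11776. Igfbp7 had 30406 and 129, the largest fold lower (235-fold) among genes above the floor on both arrays, with 2 of its 3 probe sets at least 2-fold lower. Igfbp5 (7977 and 369) and Igfbp6 (1460 and 18.7) were lower too. The ligand Igf2 had 12910 and 45.8. Over the list 3 of 15 were higher and 6 lower, with a median of -0.43 (0.06 with control scaling, and 0.35 over the 11 members measured in both cell types).

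Receptors and ligands of the FGF, EGF and PDGF families were higher for 7 of 25 and lower for 9, with a median of -0.50. It was -0.04 with control scaling, -0.11 over the 12 members measured in both cell types and -1.29 with no floor. Egfr (747 and 2750) and Fgfr3 (161 and 1017), receptors for the mitogens in the neural medium, were higher. For Egfr, 1 of 7 probe sets was at least 2-fold higher. Fgfr1 was 2225 and 1225. The ligands Hbegf (10274 and 611) and Pdgfc (8864 and 1574) were lower. Genes induced by ERK as feedback were higher for 8 of 13 and lower for 3, with a median of 1.41. Spry4 (354 and 3441), Etv5 (973 and 9128), Spry2 (889 and 5853) and Dusp6 (3323 and 13693) were among the higher. Dusp5 (1627 and 155) and Ier3 (5465 and 1509), which also respond to serum, were lower.

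Notch genes had 7 higher and 7 lower of 24, with a median of -0.11 (0.69 with control scaling). Dner (50.1 and 4622), an atypical ligand, Dll1 (74.9 and 780) and Dll3 (119 and 539) were higher. The ligand Jag1 (8633 and 1493) and the receptor Notch2 (1755 and 410) were lower. Of the targets, Hes5 reached 209 on NSC and was below the floor on MEF, Hes1 was 1005 and 961, and Hey1, Hey2 and Heyl were lower.

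Hedgehog genes were 3 higher and 3 lower of 9 (median -0.32, or 0.57 with control scaling). The receptor and target Ptch1 had 869 and 4311 and the coreceptor Gas1 2532 and 8875, while Gli2 (818 and 217) and Gli3 (1245 and 442) were lower. Wnt genes were 9 higher and 12 lower of 33, with a median of -0.50 that turned to 0.17 under control scaling and was -0.25 over the 17 members measured in both cell types. The receptors Fzd3 (233 and 3153) and Fzd9 (5.60 and 1689), the ligand Wnt7a (6.32 and 668) and Ccnd1 (3266 and 19954), a cyclin with many inputs, were higher. Fzd7 (3377 and 478), Lef1 (575 and 60.5) and the inhibitor Dkk3 (1723 and 9.37) were lower.

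Many proliferation genes were higher in NSC and none on these lists was 2-fold lower. In mitosis, 44 of 62 measured members were 2-fold or more higher, 18 within 2-fold and 0 lower, with a median of 1.46. Kif11, the spindle motor, had 203 and 1969, Ttk 223 and 1743, Top2a 1985 and 8374 and Mki67 1292 and 5776. Cdk1 (6151 and 7845), Plk1 (1532 and 1673) and Ccnb2 (2132 and 2447) hardly differed, so the size varied widely within the list. In DNA replication, 18 of 44 were higher, 26 within 2-fold and 0 lower, with a median of 0.85. Pola1 (209 and 1685) and Ccne2 (529 and 2705) led, while Pcna was 11911 and 18203 and Mcm5 5995 and 7343. The letters CCAAT stood in 35 of 51 mitosis promoters (68.6%) against 34.5% of all, and TTTGAA in 17 (33.3%) against 16.3%. For DNA replication genes the E2F letters TTTGGCGC stood in 3 of 35 (8.57%), against 0.437% of all promoters and 0.900% of those of measured genes.

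Inhibitors of the cell cycle and p53 targets showed no common direction, with 6 higher (21.4%) and 10 lower (35.7%) of 28. Of all measured genes 19.9% were higher and 17.5% lower. The list's median was 0.03. It was 0.92 with control scaling and -0.26 when the median over each gene's probe sets was taken. Trp53inp1 (1156 and 7774) and Rprm (246 and 1775) were higher, and Gadd45g (5963 and 306), Gadd45b (2312 and 88.3) and Cdkn2b (7029 and 1187) lower. Cdkn1a was 8133 and 4928. Immediate early genes, which respond to serum and handling within minutes, were lower for 16 of 25 and higher for 1, with a median of -1.86 (-1.03 over the 20 members measured in both cell types). Fosl2 had 5331 and 131 and Ier5 6499 and 646. Egr1 (12114 and 16169) and Fos (688 and 1141) were not lower, and Klf10 was higher (1569 and 7940). Culture medium and cell type cannot be told apart for these genes.

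Chemokine, cytokine and NF-kB genes were lower for 23 of 31 and higher for 1, with a median of -1.70. Bounds made up 22 of the 31, and the 9 members measured in both cell types had a median of -1.53. Cxcl12 had 9138 and 30.6, Ptgs2, an inducible prostaglandin synthase, 8589 and 28.3, and Csf1 5195 and 380. Lifr, a receptor for LIF, was higher at 371 and 3100. Interferon response and MHC class I genes were lower for 11 of 19 and higher for 2, with a median of -1.11 (-0.13 with control scaling). Ifitm3 had 10962 and 351 and B2m 14853 and 4727, while H2-K1 was 1104 and 971.

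Cholesterol synthesis genes were higher for 16 of 20 and lower for 0, with a median of 1.43. Idi1 had 1302 and 10214, Dhcr7 414 and 2569, Hmgcs1 6345 and 24966 and Sqle 2570 and 8186. The regulator Srebf2 was 905 and 1240. The sterol element TCACCCCAC stood in 1 of 16 promoters of these genes (6.25%), that of Hmgcs1. It stood in 0.466% of all promoters and 0.536% of those of measured genes. Fatty acid and lipid genes were mixed, with 13 higher and 8 lower of 39 and a median of 0.26. Elovl2 (3.38 and 1541) and Elovl6 (542 and 4028), which lengthen fatty acids, were higher. Fads3 (4722 and 73.8), Fabp4 (1428 and 19.3) and Plin2 (5211 and 765) were lower, and Scd2 was bright on both (27267 and 30120).

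Hypoxia and glycolysis genes were lower for 21 of 38 and higher for 4, with a median of -1.22. It was -0.50 with control scaling and -0.78 when the median over each gene's probe sets was taken. Slc2a1, the main glucose transporter, had 10055 and 875, Ndrg1 1623 and 70.0, Pfkp 2111 and 161 and Ldha 30442 and 13372. Aldolase and lactate dehydrogenase differed by form: Aldoa was lower (25743 and 8549) where Aldoc was higher, and Ldhb was higher (908 and 3938) where Ldha was lower. Hif1a itself was 5159 and 7050. Oxidative phosphorylation genes stayed together, with 62 of 65 within 2-fold and a median of 0.03. That median was 0.92 with control scaling and 0.28 after quantile normalization.

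Amino acid stress and unfolded protein genes were lower for 19 of 43 and higher for 0, with a median of -0.91 (-0.07 with control scaling). Ddit3 (3467 and 251), Trib3 (1410 and 147), Chac1 (1979 and 324) and Atf4 (13982 and 4093) were among the lower. The ER chaperone Hspa5 was 24502 and 15975. The letters TGATGCAA, the element of ATF4 and its partners, stood in 4 of 38 promoters (10.5%). The share was 0.818% of all promoters and 0.482% of those of measured genes. The element is shown for 2 of the lower genes, on the opposite strand in both, so TTGCATCA is capitalised.
Chac1: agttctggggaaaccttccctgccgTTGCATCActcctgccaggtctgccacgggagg
Atf3: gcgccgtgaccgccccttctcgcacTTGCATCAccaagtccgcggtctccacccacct
These are chr2:119351024-119351081 (plus) and chr1:191183411-191183468 (minus). Atf3 had 710 and 36.5.

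Antioxidant genes and metallothioneins were 6 higher (18.75%) and 11 lower (34.4%) of 32, against 19.9% and 17.5% of all measured genes. Their median was -0.47, or 0.42 with control scaling. Mt3 (17.0 and 427) and Mgst1 (1392 and 4966) were higher and Cyp1b1 (2284 and 40.7), Gsto1 (15194 and 1946) and Gpx7 (3639 and 374) lower. Lysosome genes were lower for 19 of 41 and higher for 1, with a median of -0.86 (-0.07 with control scaling). Ctsl had 21935 and 3839, Ctsz 10786 and 1903 and Grn 12012 and 2532, while Ctsc was 5754 and 10735.

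Splicing regulators included the neural forms. Nova1 had 95.1 and 2450, Elavl2 158 and 1883, Elavl4 11.6 and 828, Celf2 1175 and 6799 and Ptbp2 1675 and 6107. The non-neural Ptbp1 was lower (8459 and 4125), and so were Rbfox2 (1032 and 213) and Mbnl2 (4427 and 1493). Over the list 8 of 26 were higher (30.8%) and 5 lower (19.2%), with a median of 0.41. Of all measured genes 19.9% were higher and 17.5% lower. Chromatin genes of DNA methylation and Polycomb were higher for 14 of 35 and lower for 2, with a median of 0.55. All 3 core subunits of Polycomb complex PRC2 were higher, Ezh2 at 1249 and 5755, Suz12 at 1379 and 3431 and Eed at 1502 and 3095. Satb1 had 151 and 2206. Hmga2, an architectural protein of embryonic cells, was lower at 7091 and 269.

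Imprinted genes, which are read from 1 parental copy, were 10 higher and 9 lower of 29 (median -0.11, or 0.53 with control scaling and 0.07 over the 18 members measured in both cell types). Mest (379 and 10175), Nap1l5 (143 and 4311), Nnat and Peg3 (548 and 2433) were higher. Igf2, Igf2r (4759 and 575), Grb10 (16466 and 2623) and Plagl1 (5120 and 662) were lower. The neighbours Dlk1 (433 and 71.4), Meg3 (9711 and 87.4), Rian (2085 and 104) and Mirg (883 and 10.3) on chromosome 12 were lower together, with 8 of 11 probe sets of Meg3 at least 2-fold lower.

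Hox genes were above the floor on MEF and, with 1 exception, not on NSC. Of the posterior groups 6 to 13, 14 of 20 genes were above the floor on MEF and 0 on NSC, and 6 were below it on both. Hoxd13 (2058 and 34.2), Hoxa9 (1656 and 15.5), Hoxa10 (1477 and 24.9) and Hoxc8 (1274 and 8.16) led. All 14 folds are bounds set by the floor, and these genes counted as measured through the MEF array alone, so their direction was fixed by that filter and their number and size support nothing further. Of the anterior groups 1 to 5, 9 of 13 were above the floor on MEF and 1 on NSC, and 4 were below it on both. The 1 on NSC was Hoxa5 (651 and 143). The other 8 of the 9 counted as measured through MEF alone as well. Regional factors of the brain were 6 higher and 6 lower of 17, with a median of 0.16. Lhx2 (109 and 841), Six3 (75.4 and 237) and Otx2 (2.23 and 216), which mark forebrain or forebrain and midbrain, were higher but dim. Irx1, Irx2, Irx3 and Irx5 were lower, with Irx3 at 2130 and 426.

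Genes on the X chromosome were shifted towards NSC. Of 377 measured X-linked genes, 62 (16.4%) were at least 4-fold higher, against 3.85% to 8.29% on the 19 autosomes. The share at least 4-fold lower, 6.10%, lay inside the autosomal range of 5.00% to 10.4%. Counting genes measured in both cell types, the X-linked median was 0.48, and the autosomal medians ran from -0.15 to 0.32. On a neural list were 6 of the 62. Without all genes of the neural lists, 15.3% of X-linked and 5.10% of autosomal genes were 4-fold higher. The lists do not hold every gene of neural cells, so such genes can remain in these shares. The part of neural identity was not tested. The 62 included Gpm6b, Bex2 (62.8 and 14252), Bex1 (166 and 3831), Hmgn5 (233 and 4473), Klhl13 (580 and 6807) and Dkc1 (1144 and 6976), which acts in ribosome and telomere biology.

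Xist, the RNA of the inactive X, had 2893 on MEF and 13134 on NSC. The Y-linked Eif2s3y had 367 on MEF and was below the floor on NSC, and Uty had 123 and 18.8. Each array therefore carried Xist signal, and Y-linked signal was above the floor on MEF alone. The X-linked median minus the autosomal median was 0.43 for NSC against MEF. It was -0.23 and -0.20 for the induced arrays against the same MEF array, and -0.56 and -0.58 for them against NSC. These comparisons share arrays. The part of sex, of culture and of cell type in the shift was not tested.

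**Figure D4:**
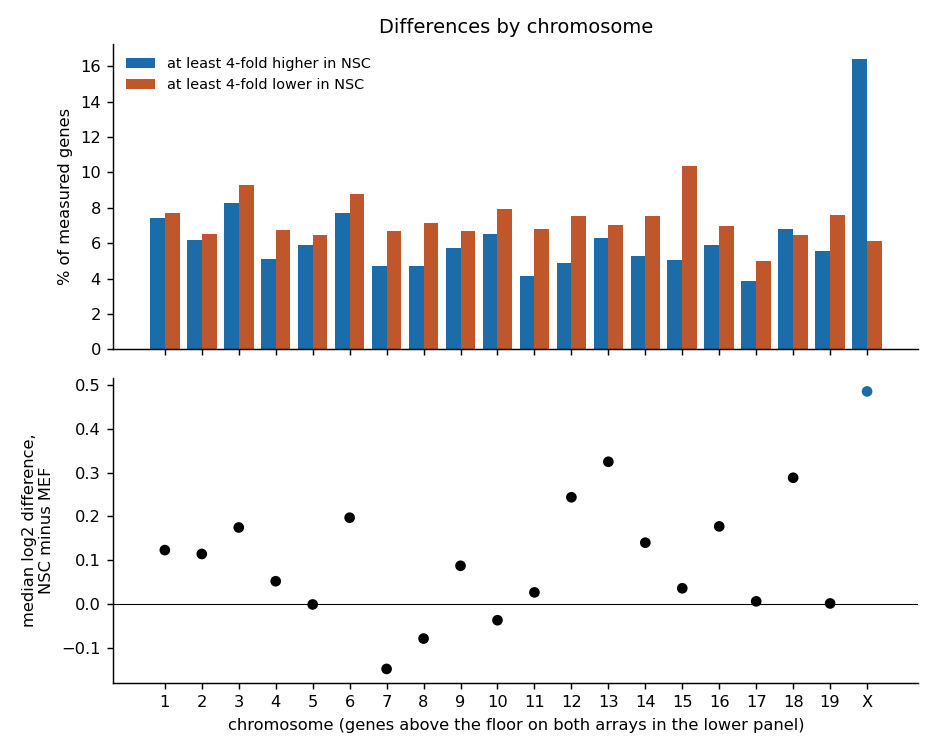
Upper panel, the percentage of measured genes at least 4-fold higher (blue) or lower (orange) in NSC on each chromosome; lower panel, the median log2 difference, NSC minus MEF, of genes measured in both cell types. The X chromosome has the highest share of higher genes, 16.4%, and the highest median, 0.48.

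Genes higher in NSC also spanned more of the genome. The median span from first to last base of the gene was 45.8 kb for the 699 higher genes with a span, 25.8 kb for lower genes and 23.6 kb for genes within 4-fold. Spans over 100 kb made up 30.6%, 16.9% and 12.8% of these.

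The brightest genes of both arrays encode ribosomal proteins and other abundant products. Rps29 had 59291 on MEF and 37965 on NSC, and Lgals1, a secreted lectin and the brightest gene on MEF, had 66957 and 25664. Of 42 ribosomal protein genes 4 were lower and 0 higher, with a median of -0.58, which became 0.31 with the arrays set equal on the hybridization controls and -0.03 after quantile normalization. Housekeeping genes had a median of -0.69 over 14, which became 0.20 and -0.15. The median difference depended on brightness. It was 0.20 for genes with a mean signal between 1000 and 2000 and -0.49 for the 141 genes above 16000.

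**Figure D5:**
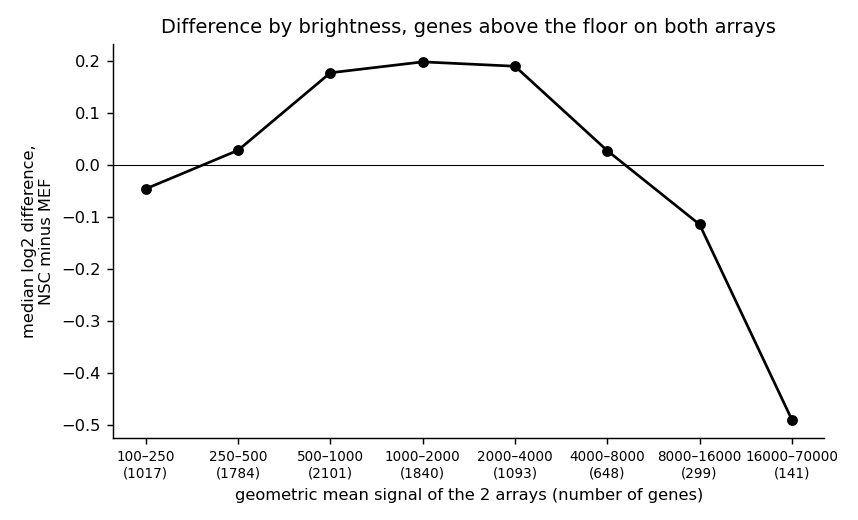
The median log2 difference, NSC minus MEF, of genes above the floor on both arrays, in 8 ranges of the mean signal, with the number of genes in brackets. It lies between -0.05 and 0.20 up to a mean signal of 8000 and falls to -0.49 above 16000.

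Several of the genes furthest apart lie on none of the lists. Higher in NSC were Car2 (139 and 4977), a carbonic anhydrase, Tmem158 (303 and 7889), Kitl (167 and 4325), the ligand of the Kit receptor, Slc15a2 (119 and 2905), a peptide transporter, Tle4 (251 and 5328), a corepressor, Neto2 (236 and 4841), Ramp1 (195 and 3926), Npas3 (163 and 3199) and Gatm (147 and 2881), which makes the precursor of creatine. Rtn1 (28.7 and 5807), Prkcb (51.0 and 5630) and the noncoding Pantr1 (10.1 and 4830) were bounds. Lower were Emp1 (11444 and 134), Nupr1 (10420 and 126), Cdc42ep3 (12939 and 171), Gsn (29392 and 583), which severs actin, Ccdc80 (6600 and 147) and Mgp (18322 and 28.5), which inhibits calcification. In all, 472 of the 1528 genes called 4-fold were on a list.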

How the data were processed

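The deposited values are array intensities, 1 linear MAS5 signal per probe set; the authors' use of MAS5 is known from the submitters' processing notes, and no version is named there. The 2% trimmed mean was 500 on both arrays, so no scaling was added. Of 45101 probe sets, 64 were controls, 34945 were named by 1 gene through the platform annotation (34741 updated by gene ID to the GRCm38.p6 table), 932 by several and 9160 by none. Each gene was read from 1 probe set, the one brightest on average over the 4 arrays on the floored log2 scale. For the floor, the 95th percentile of the receptor probe sets was taken on each of the 4 arrays, and the highest was used. Dimmer values were raised to it before taking log2.

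Samples were grouped by cell type label. A group of 1 array allows no test, so calls rest on size alone: a gene needed a 4-fold difference and a list member 2-fold, with a signal over the floor in the brighter sample. The 56 lists, the promoter motifs (7 pairs of list and motif) and the genes named were chosen with earlier results of these data known. The naming rule took the 25 largest differences each way among genes measured in both cell types, the 15 largest bounds each way, the 10 brightest of each array and up to 12 members a list; some of these are given only as counts, and some lists name more. The call by size was run on simulated data with known changes, placed only in genes far above the floor and with noise of a set size. That run checks the working of the rule. It cannot tell how reliable the calls are near the floor or between replicate arrays. Python 3.11.15, numpy 2.4.6 and pandas 2.3.3 were used.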

Additional observations from a re-analysis of the deposited data

How the results depend on the processing

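Quantile normalization, the choice of brightest probe set, and dropping the _s_at and _x_at probe sets moved no count by over 1.5 times. Setting the arrays equal on the hybridization controls gave 2006 genes 4-fold higher, 533 lower, 79.0% of calls higher and a median of 0.80. With the floor at the 75th percentile the median was -0.12. Taking the median over each gene's probe sets, 447 genes were higher. Restricted to genes measured in both cell types, 426 were higher and 456 lower, by construction, since bounds leave. Centring the differences on their running median over brightness, an alternative chosen after seeing the data, gave 646 higher and 869 lower.

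Of 41 lists with a median of at least 0.5 either way, 41 kept the sign under each alternative other than control scaling and the restriction to genes measured in both. Under control scaling 5 turned: Wnt (0.17), tubulin (0.20), cadherin (0.20), ribosomal protein (0.31) and housekeeping genes (0.20). Among genes measured in both cell types 2 of 35 turned, astrocyte genes (-0.14) and skeletal muscle and cartilage markers (2.57, over 3 genes). The X-linked median minus the autosomal one ranged from 0.31 to 0.52. The cause of these shifts was not tested. No paired analysis was possible because each group has 1 array. Genes near the floor are limited by signal over background.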

Other observations

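Probe sets of a gene mostly went the same way. Of 398 genes called higher with several measured probe sets, all of these were higher in 359 genes, and of 405 called lower, all were lower in 401. All were at least 2-fold the called way in 227 of the 398 and 291 of the 405. A measured probe set was at least 2-fold the other way in 6 genes called higher and 1 called lower. The probe set that gave the call is among those counted, so part of this agreement is built in. In 41 of 5203 genes with several measured probe sets, 1 was at least 2-fold higher and another at least 2-fold lower, and in 0 genes were both 4-fold. Cds2, a lipid synthesis enzyme, had probe sets from -2.41 to 1.76 on the log2 scale. Arhgap12 had probe sets at 3.05 and -1.40, and Adipor1, an adiponectin receptor, had them at 1.33, -1.77 and -1.83. Such genes were chosen after their values were seen, and which transcripts the probe sets read was not examined.

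Neighbouring genes called 4-fold the same way in runs of at least 3 measured genes numbered 12, of which 6 were higher and 6 lower. By gene order in the GRCm38.p6 table, the longest were Hoxa5, Hoxa9, Hoxa10, Hoxa11 and Hoxa11os on chromosome 6, lower in NSC, and Gprasp1, Gprasp2, Bhlhb9, Bex2 and Bex4 on chromosome X, higher. Of these, Hoxa9, Hoxa10 and Hoxa11 counted as measured through MEF alone and Gprasp2, Bex2 and Bex4 through NSC alone. Their direction was fixed by that filter. How many such runs would arise by chance was not tested. Dmrta2, Elavl4 and Bend5 on chromosome 4 were higher, and Mogat2, Map6 and Serpinh1 on chromosome 7 lower.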
